A study of Mus musculus with 2 samples.

Results

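The cells described here are mononuclear phagocytes of the skin of suckling mice that express Retnla, Lpl, Fn1, Ear2 and Lyz1 with little or no C1q. They numbered 927 of 27589 cells kept in both libraries, 649 of 19542 in the isotype control library and 278 of 8047 in the anti-Gr-1 library. A cell was a member when at least 3 of Retnla, Lyz1, Ear2, Lpl and Fn1 were detected with at least 6 unique molecular identifiers (UMIs, each standing for 1 captured mRNA molecule) in sum. C1qa, C1qb and C1qc together had to stay under 0.3% of its UMIs. Cd3d, Cd3e and Cd3g had to be at 0, Xcr1 plus Clec9a under 2, Ccr7 under 2, and Mki67 plus Top2a under 3 UMIs. These limits left out C1q-rich macrophages, T cells, type 1 and mature dendritic cells and dividing cells. All of these genes chose the members, so their levels are given below as a description only.

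The study measured single-cell RNA of live CD45+ cells, that is, all leukocytes, sorted from collagenase-digested skin of wild-type C57BL/6 mice at postnatal day 15. One pool received an isotype control antibody and the other anti-Gr-1, every other day from day 4 to day 14. The anti-Gr-1 antibody binds Ly6G and Ly6C, surface proteins of neutrophils and classical monocytes, and per the series' design text it was given to deplete monocytes. Each pool held skin of 4 to 7 mice and gave 1 library. With 1 library per treatment there is no replicate and no test between treatments. All intervals below are 95% intervals that cover counting error only. The labels give the tissue as skin and not as dermis, so the position of the cells within the skin is not known from them.

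Phagocytes of the skin come from several sources. Settled macrophages express C1q, Mrc1 and Lyve1 and clear dead cells, type 2 dendritic cells express Mgl2, Cd209a and much MHC class II and carry antigen to lymph nodes, and classical monocytes enter from the blood with Ly6c2, Plac8 and Ccr2. Monocytes that settle in a tissue lose Ly6c2 and can take on macrophage or dendritic features. Retnla encodes resistin-like molecule alpha, a secreted protein of macrophages under IL-4 or IL-13, Lpl the lipase that frees fatty acids from lipoproteins, Fn1 the matrix protein fibronectin, Ear2 an eosinophil-associated ribonuclease and Lyz1 a lysozyme that digests bacterial walls.

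In mouse build mm10 with the GENCODE M21 annotation all 5 genes are protein coding. Retnla (ENSMUSG00000061100) lies at chr16:48842551-48844461 on the plus strand, and Lpl (ENSMUSG00000015568) at chr8:68880491-68907448 on the plus strand. Ear2 (ENSMUSG00000072596) lies at chr14:44102654-44103534 on the plus strand. Fn1 (ENSMUSG00000026193) lies at chr1:71585520-71653200 and Lyz1 (ENSMUSG00000069515) at chr10:117287797-117292868, both on the minus strand. Ear2 and Lyz1 belong to families of near-identical copies (Ear1, Ear6 and Ear10; Lyz2), so the division of UMIs between copies is uncertain. Ear1, Ear6 and Ear10 each had at most 1.08 CPM (UMIs of the gene in 1000000 UMIs) in the members of either library.

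The promoters of Retnla, Ear2 and Lyz1 are shown because RefSeq promoters on GRCm38.p6 matched only these 3 of the 5 genes. The 250 bases before each start are printed 5′ to 3′ on the gene's strand. For Retnla the RefSeq start lies downstream of the GENCODE start given above, so the printed stretch runs into the GENCODE gene, and distances count from the RefSeq start. Capitals mark 4 motifs searched on both strands: TATAAA, the core of a TATA box; AGGAAG, the core bound by PU.1; TTCNNNNGAA, the type bound by STAT6; and TTGCNNAA, the type bound by C/EBP proteins. CTTCCT is AGGAAG on the other strand, and no matches overlapped.
Retnla, chr16:48842359-48842608, plus strand: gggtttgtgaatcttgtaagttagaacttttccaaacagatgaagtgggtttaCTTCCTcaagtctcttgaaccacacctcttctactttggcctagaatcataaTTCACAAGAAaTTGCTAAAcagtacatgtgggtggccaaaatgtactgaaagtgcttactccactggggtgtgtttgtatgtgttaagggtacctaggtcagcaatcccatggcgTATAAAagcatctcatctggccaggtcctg
Ear2, chr14:44102404-44102653, plus strand: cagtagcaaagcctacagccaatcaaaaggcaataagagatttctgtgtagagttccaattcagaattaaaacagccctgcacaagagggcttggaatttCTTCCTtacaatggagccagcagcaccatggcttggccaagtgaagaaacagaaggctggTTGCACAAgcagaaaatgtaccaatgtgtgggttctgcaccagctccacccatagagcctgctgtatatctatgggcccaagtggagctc
Lyz1, chr10:117292869-117293118, minus strand: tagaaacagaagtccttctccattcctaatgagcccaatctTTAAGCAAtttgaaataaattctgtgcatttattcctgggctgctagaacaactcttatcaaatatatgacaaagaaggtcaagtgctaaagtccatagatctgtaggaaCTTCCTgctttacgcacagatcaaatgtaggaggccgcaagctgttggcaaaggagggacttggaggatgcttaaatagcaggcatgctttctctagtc

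The Retnla promoter held all 4 motifs, with TTCACAAGAA from 145 to 136 bases and TTGCTAAA from 134 to 127 bases before the start, and TATAAA from 30 to 25 bases before it. The Ear2 and Lyz1 promoters held AGGAAG and TTGCNNAA, and neither TATAAA nor TTCNNNNGAA. Among all 32851 RefSeq promoters of this length, 12.4% held TATAAA, 29.5% AGGAAG, 5.85% TTCNNNNGAA and 9.56% TTGCNNAA. These are matches of letters and were not linked to binding.

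The members took 3.32% (3.07 to 3.58, exact binomial interval) of the kept cells in the isotype control library and 3.45% (3.07 to 3.88) in the anti-Gr-1 library, a ratio of 1.04 (0.901 to 1.20). The ratio turned to 0.901 (0.777 to 1.04) when every cell was thinned to 2000 UMIs, at 3.90% and 3.52%. Both intervals held 1. With at least 10 summed UMIs in the rule the ratio was 1.19 (1.03 to 1.37), and with 4 of the 5 genes 1.21 (1.01 to 1.45), so stricter limits gave a higher share in the more deeply sequenced library. Of the cells in the members and the 3 other phagocyte gates defined below, the members were 31.1% and 29.1%. Median UMIs per kept cell were 4884 (isotype control) and 8139 (anti-Gr-1), and members had 9962 and 15622 UMIs over 2713 and 3309 genes, so a gene was more easily detected in an anti-Gr-1 cell. In all, 61 barcode sequences occurred in both libraries, and 0 of these were members in both.

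Members near the limits of the rule were few and more frequent in the shallower library. In the isotype control library 49 members (7.55%) had a sum of 6 or 7 UMIs of the 5 genes and 83 cells with 3 of the genes fell just outside with a sum of 3 to 5, against 0 and 3 cells in the anti-Gr-1 library. At the C1q limit, 26 and 6 members had 0.2% to 0.3% of their UMIs from C1q genes, and 21 and 1 cells with 0.3% to 0.4% were not members. C1q was at 0 in 62.1% and 74.5% of members. UMIs of both Xist and any of 4 Y-linked genes were found in 63 members (9.71%) and 10 members (3.60%). Doublets were kept, because the automatic threshold of the doublet score called 0 cells in the isotype control library and 489 (6.08%) in the anti-Gr-1 library. By the expected doublet rate instead, 27 (4.16%) and 2 (0.719%) members lay among the highest scores.

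All 5 genes of the rule were found at similar levels in the members of both libraries, except Lyz1, which was higher in the anti-Gr-1 library. Retnla had 2387 CPM (2349 to 2425) in the isotype control and 2666 CPM (2618 to 2714) in the anti-Gr-1 members, and Fn1 2018 (1983 to 2053) and 2283 (2239 to 2328). Lpl had 1642 (1611 to 1673) and 1876 (1836 to 1917), Ear2 1366 (1337 to 1394) and 1394 (1360 to 1430), and Lyz1 788 (767 to 810.4) and 1370 (1335 to 1405). CPM was taken over the UMIs of all cells of a group summed. The plot of the 5 genes by cell group sets these levels beside those of the other gates.

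**Figure D1:**
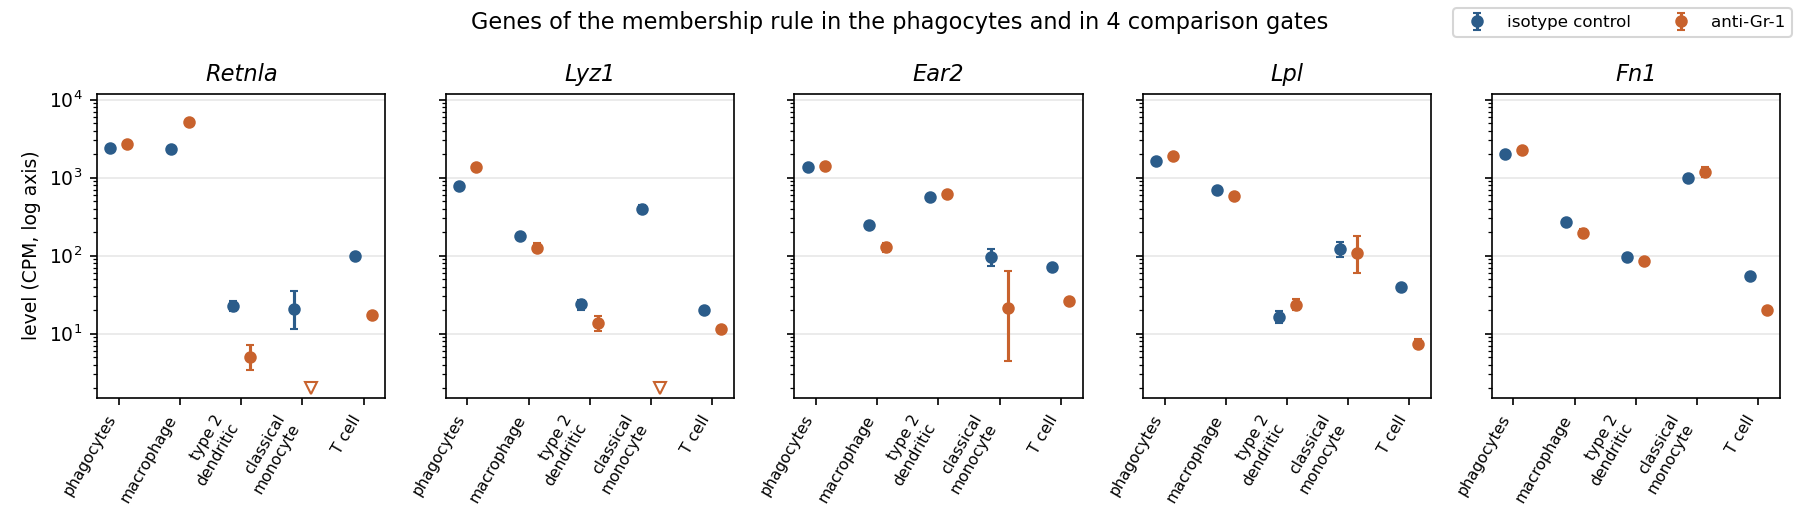
Levels of the 5 genes that chose the members, in CPM on a log axis, in the members (named phagocytes in the plots) and in the macrophage, type 2 dendritic, classical monocyte and T cell gates of both libraries; bars are 95% Poisson intervals and an open triangle marks a group with 0 UMIs. Fn1 and Lpl of the members lie above all gates in both libraries, while Retnla of the macrophage gate reaches 2349 and 5189 CPM.

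No single gene of the rule marked all members. Fn1 was detected in 92.0% and 94.6% of them and Ear2 in 91.1% and 99.6%, Lpl in 77.0% and 82.0%, Retnla in 60.6% and 54.3%, and Lyz1 in 56.5% and 67.6%. After thinning to 2000 UMIs, Ear2 was detected in 78.7% and 83.3% and Retnla in 36.0% and 36.6% of the members (591 and 276 cells reached that depth). In the T cell gate, which should lack these genes, the thinned shares were 7.02% and 2.11% for Ear2 and 10.1% and 1.88% for Retnla (6465 and 3931 cells). Of the members, 279 (43.0%) and 93 (33.5%) were chosen on 3 of the 5 genes, and 131 (20.2%) and 88 (31.7%) had all 5.

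Retnla came from a small number of members. The median member had 1 UMI of Retnla in either library, the highest 820 and 759, and 256 (39.4%) and 127 (45.7%) had 0. Members with at least 100 Retnla UMIs numbered 52 (8.01%) and 41 (14.7%), and they held 76.2% and 82.6% of all Retnla UMIs of the members. The label that begins with Retnla therefore describes the summed level better than the typical cell. Fn1 was spread more evenly, with a median of 9 and 21 UMIs per cell and highest cells of 208 and 262, and so was Ear2 with medians of 10 and 19 and highest cells of 90 and 76.

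The members carried genes of mononuclear phagocytes, and lists of other leukocytes had low summed levels. Lyz2, a lysozyme of myeloid cells, was detected in 99.5% and 99.6% of them, Itgam (CD11b) in 74.1% and 86.7%, Csf1r, the receptor of macrophage colony-stimulating factor, in 74.0% and 80.9%, and Csf2ra, a receptor chain for GM-CSF, in 88.1% and 96.4%. Lists of other cell types had these summed levels in the isotype control and anti-Gr-1 members: T cells 97.5 and 30.9 CPM (8631 and 9033 CPM in the T cell gate), neutrophils 116 and 14.0, eosinophils 27.3 and 23.7, B cells 80.2 and 52.2, mast cells and basophils 181 and 218, stroma and keratinocytes 109 and 64.6, natural killer and innate lymphoid cells 198 and 167. At least 1 UMI of 6 genes of other lineages was found in 421 and 173 members. The eosinophil genes Epx and Prg2, the neutrophil gene Ly6g and the B cell gene Ms4a1 were at 0 UMIs, which allows up to 0.464 and 0.678 CPM. Langerhans cell genes summed to 50.7 and 62.1 CPM.

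Several defining genes of alveolar and of large body cavity macrophages, other cells that can express Lpl or Retnla, were at or near 0. Car4, Krt19, Fabp1 and Cidec of alveolar macrophages were at 0 UMIs in both libraries, and Siglecf had 2.32 and 1.81 CPM and Chil3 4.02 and 0.452 CPM. Gata6, the transcription factor of large peritoneal macrophages, had 1.70 and 0.452 CPM. Other genes of both lists were present: of the alveolar genes that set no limit, 3 of 4 tested were at least 2-fold higher than in the macrophage gate (defined below) in either library, with 0 and 1 lower, and of the large cavity genes 3 of 6 and 2 of 5, with 1 and 1 lower. The small macrophages of body cavities, which are monocyte-derived and rich in MHC class II, have a list of 11 genes, of which 6 served in the rule or the gates. Its other genes, Cd226, Clec4b1, Fcrls, Il1b and Irf4, are given with the comparisons below.

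For comparison, 3 phagocyte gates, chosen with earlier values in view, were set on cells that were not members, with the same exclusions. The macrophage gate (433 and 200 cells) had C1q at 0.3% or more and at least 3 of Mrc1, Folr2, Lyve1, Cd163, F13a1, Pf4, Cbr2 and Gas6. The type 2 dendritic gate (918 and 465 cells) had C1q under 0.3%, at least 3 of Cd209a, Mgl2, Clec10a, Flt3, Tnfsf9 and Kmo, at least 5 UMIs of H2-Ab1, and under 2 of Cd207 plus Epcam. The classical monocyte gate (86 and 11 cells) had Ly6c2 and Csf1r detected and at least 3 genes of a short list of classical monocyte genes that includes Ly6c2, Plac8, Ccr2, Chil3, Vcan, Ms4a4c and Hp, with at least 4 UMIs in sum. The 11 anti-Gr-1 monocytes were too few to be compared. A T cell gate (8082 and 3972 cells) with at least 3 Cd3 UMIs and Csf1r at 0 shows the level of myeloid RNA in cells that should lack it.

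Against macrophages, the members had lower levels of the settled macrophage genes, which summed to 2209 and 1470 CPM against 35274 and 39270 CPM. Of 22 such genes, 20 of 21 tested were at least 2-fold lower in the isotype control members (median log2 ratio -4.50) and 21 of 21 in the anti-Gr-1 members (-5.50), and 0 were higher. A gene was tested with at least 20 UMIs over the groups compared, log2 ratios were taken with 5 CPM added to both levels, and a gene is counted as higher or lower at 2-fold or more. Over all 10527 and 9669 genes tested, 3.82% and 5.75% were higher and 7.11% and 9.11% lower, at medians of -0.13 and -0.14. C1q and the gate genes fix part of this: of the genes that set no limit, 9 of 10 (median -3.37) and 10 of 10 (-3.77) were lower.

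Among those unused genes, Apoe, the lipoprotein of tissue macrophages, had 406 CPM in the isotype control members and 51.0 CPM in the anti-Gr-1 members, against 9532 and 10316 CPM in the macrophage gate. Selenop, a secreted selenium carrier, had 223 and 140.0 CPM against 4874 and 5130. Mertk, the receptor for dying cells, had 4.64 and 5.42 CPM against 79.9 and 103. Adgre1, which encodes F4/80, stood closer, with 242 against 455 CPM in the isotype control library. The scavenger receptor gene Mrc1, which set the gate, was nonetheless present in the members at 544 and 477 CPM, close to the 498 and 465 CPM of the type 2 dendritic gate. Of 18 genes for the uptake and digestion of dying cells, 8 (isotype control) and 10 (anti-Gr-1) were lower than in macrophages and 0 were higher.

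Antigen presentation genes lay between those of macrophages and dendritic cells. H2-Ab1, an MHC class II chain, had 7078 and 6935 CPM in the members, 2782 and 1796 CPM in macrophages and 12558 and 11668 CPM in type 2 dendritic cells. Cd74, the invariant chain, had 18121 and 17971 CPM against 7761 and 5319 in macrophages and 28833 and 27466 in dendritic cells. The T cell gate had 1538 and 676 CPM of H2-Ab1, and the part of free RNA in the phagocytes' levels was not tested. Of 18 MHC class II and costimulation genes, 9 and 13 were higher than in macrophages and 0 were lower. Against type 2 dendritic cells 0 were higher, and 3 (median -0.65) and 5 (-0.70) were lower. All 11007 and 10235 genes tested against dendritic cells had 2.93% and 3.06% higher and 2.29% and 2.81% lower, at medians of 0.04 and 0.03. Ciita, the master switch of MHC class II, had 143 and 133 CPM, close to the 166 and 154 CPM of dendritic cells and above the 63.2 and 42.0 CPM of macrophages. H2-DMb2, a peptide loading chain, was among those above both, with 98.3 and 124 CPM against 65.9 and 61.2 in dendritic cells and 12.6 and 10.1 in macrophages.

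Dendritic cell genes were shared in part. Mgl2, a galactose-binding lectin, had 1083 and 999 CPM in the members and 1995 and 1839 CPM in the dendritic gate that it helped to set, and Cd209a, a lectin related to DC-SIGN, 525 and 499 CPM against 971 and 1046. Cd209d, which no limit used, showed the same order with 789.7 and 789.9 CPM in the members, 1791 and 1900 in dendritic cells and 207 and 117 in macrophages. Flt3, the receptor that drives dendritic cell development, was lower, with 24.6 and 11.1 CPM against 231 and 191. Zbtb46, a transcription factor of conventional dendritic cells, had 7.57 and 5.87 CPM against 35.7 and 30.2. Of the 6 genes of the type 2 dendritic list that set no limit, 2 and 2 were lower than in the gate, Zbtb46 and Dpp4, and 1 was higher in the isotype control members, Ccl17. Irf4, a transcription factor of type 2 dendritic cells, had 97.7 and 129 CPM against 137 and 139, and Tnip3, an inhibitor of NF-kappaB signalling, 565 and 549 CPM against 641 and 636.

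Against the monocytes of the isotype control library, the members had lower levels of classical monocyte and interferon genes and a like level of Ccr2. Over all 9787 genes tested, 6.55% were higher in the members and 4.59% lower, at a median of 0.05. Of 13 classical monocyte genes tested, 10 were lower (median -2.86) and 0 higher, and of the 5 that set no limit, 4 were lower. Ly6c2, which did, had 29.2 CPM against 951, and Thbs1, thrombospondin, which did not, 209 against 3025. Ccr2, the receptor that brings monocytes out of the bone marrow, had 1028 CPM in the members and 1059 CPM in monocytes, while macrophages had 506 and dendritic cells 293. Of 14 genes induced by interferon, 13 were lower (median -2.93), among them Rsad2 with 14.5 against 631 CPM and Ifitm3 with 346 against 2564 CPM. Lyz2 had 6630 CPM against 13417 in monocytes, 3557 in macrophages and 2267 in dendritic cells.

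A small set of genes stood above each of the 5 gates compared, led by Cd226. Of 1149 genes with at least 100 CPM in the members of both libraries, 7 were at least 2-fold higher than in each of the 5 gates compared, and 244 were higher by any amount. A gene's lowest log2 ratio over the 5 gates ranks them. Cd226, an adhesion receptor best known on T and natural killer cells, had 129.9 and 169 CPM in the members, 19.0 and 34.6 in macrophages, 28.2 and 32.6 in type 2 dendritic cells and 1.48 in monocytes, a lowest log2 ratio of 2.03. Against the isotype control dendritic cells it was 4.62-fold higher (3.98 to 5.37), and the T cell gate had 43.4 and 45.2 CPM. Unc119, a carrier of lipid-modified proteins, had 136 and 167 CPM against 23.0 and 21.3 in macrophages, 28.3 and 32.7 in dendritic cells and 41.5 in monocytes (1.60). Socs6, of the family of cytokine signalling suppressors, had 188 and 202 CPM against at most 69.9 CPM in the 5 gates compared (1.36).

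Mmp12, the macrophage elastase, had 448 and 581 CPM in the members, 172 and 215 in dendritic cells, 49.8 and 11.7 in macrophages and 11.9 in monocytes (1.36). Batf3, a transcription factor needed by type 1 dendritic cells, had 132 and 149.8 CPM against at most 60.2 CPM (1.08), although Xcr1 and Clec9a were limited by the rule. The surface lectin Clec4b1 had 333 and 328 CPM against at most 158 CPM (1.03), and the SLAM family receptor Slamf9 168 and 202 CPM against at most 80.9 CPM (1.01). These 7 were the ones past 2-fold. The next 8 were below 2-fold against at least 1 gate: Furin, a protease that activates proproteins, at 851 and 861 CPM (0.91), Daglb, a lipase that makes an endocannabinoid (0.87), Skint3 (0.83), Mcub, a part of the mitochondrial calcium channel (0.81), Sept9, a septin (0.81), Plxnd1, a semaphorin receptor (0.77), Rgs1, which dampens G protein signals (0.71), and Slc5a3, an inositol transporter (0.68). For Rgs1 the T cell gate had 2283 CPM in the isotype control library, above the 578 and 479 CPM of the members.

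The members' lowest genes relative to all gates were fewer and nearer to the gates. Of 898 genes with at least 100 CPM in every isotype control gate, 1 was at least 2-fold lower in the members than in all 5 gates. This was Bst2, or tetherin, which holds budding viruses at the membrane and responds to interferon, with 49.9 and 59.6 CPM in the members against 137 and 185 in macrophages, 172 and 179.8 in dendritic cells and 240.0 in monocytes (highest log2 ratio -1.37). Trf, transferrin, had 112 and 65.5 CPM against 513 and 511, 344 and 295, and 189.6 (-0.74). The other 8 lay between -0.61 and -0.38: Clec2d, Rasgef1b, Ugcg, the glucocorticoid-induced Tsc22d3, Otulinl, Ms4a6d, Ms4a6c and Kmt2e. The plot of the ratios to each gate shows the 15 highest and 10 lowest genes.

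**Figure D2:**
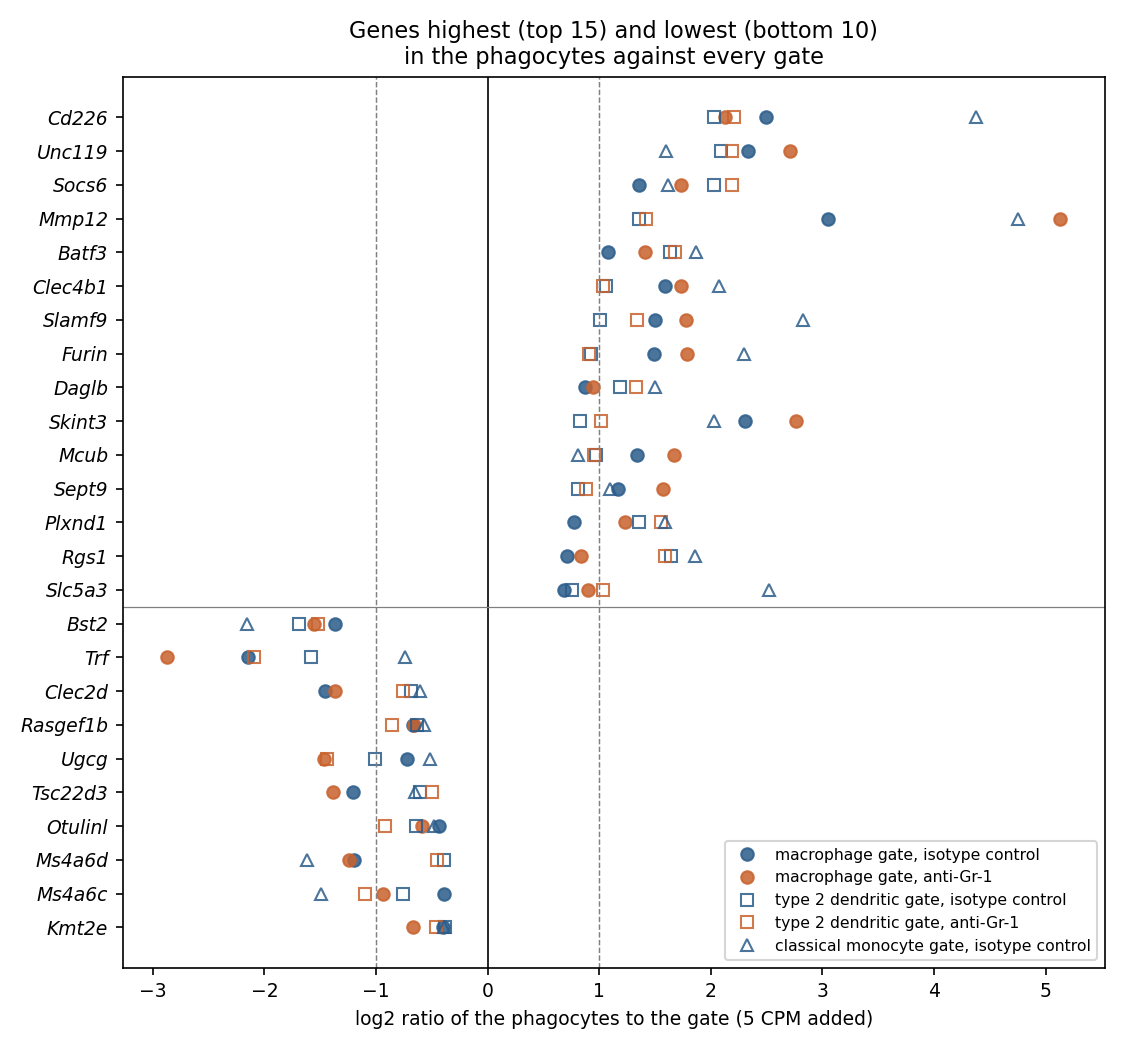
Log2 ratio of the members' level to that of each gate (macrophage and type 2 dendritic gates of both libraries, monocyte gate of the isotype control) for the 15 genes highest and the 10 lowest against all gates; dashed lines mark 2-fold. Cd226 has the highest of the lowest ratios, 2.03, and Bst2 is the only one of the lower genes past 2-fold in every gate, at -1.37.

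Adhesion and matrix genes were more often higher than lower in the members against macrophages and dendritic cells, and more often lower against monocytes. Of 41 matrix and adhesion genes tested against macrophages, 16 were higher and 8 lower in the isotype control library, and 18 and 8 of 38 in the anti-Gr-1 library. Against dendritic cells, 12 of 40 and 9 of 35 were higher and 2 and 2 lower. Against monocytes 7 of 40 were higher and 12 lower. These lists include Fn1, which chose the members. Itgax (CD11c) had 100.4 and 98.0 CPM against 47.6 and 46.6 in dendritic cells and 11.5 and 2.66 in macrophages, and Itgam 318 and 350.1 against 63.9 and 65.0 in dendritic cells. Mmp19, a secreted metalloproteinase, had 96.1 and 107 CPM against 9.67 and 9.35 in dendritic cells, 37.2 and 47.9 in macrophages and 94.8 in monocytes. Among the lower genes, F13a1, a clotting factor chain that set the macrophage gate, had 177 and 91.0 CPM against 1946 and 2070 in macrophages, and Thbs1 209 against 3025 in monocytes.

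Some lipid genes beside Lpl stood above those of dendritic cells. Without Lpl, 8 of 22 lipid genes were higher and 0 lower than in dendritic cells in the isotype control library, and 5 and 2 of 19 in the anti-Gr-1 library. Cd36, a fatty acid and lipoprotein receptor, had 205 and 193 CPM in the members against 6.57 and 5.45 in dendritic cells and 400.4 and 446 in macrophages. Plin2, which coats lipid droplets, had 336 and 308 CPM against 72.8 and 79.0 in dendritic cells and 338 and 371 in macrophages. Pparg, the nuclear receptor of lipid uptake, had 42.6 and 27.3 CPM against 11.5 and 11.8 in dendritic cells and 15.2 and 10.6 in macrophages. Apoe was at or below dendritic cells, at 406 and 51.0 CPM against 429.9 and 231.

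Ccl6, Ccl9 and Cxcl2 of the members were within 2-fold of macrophages and above dendritic cells, and several other macrophage chemokines were lower. Of 18 and 17 chemokines, 7 and 9 were higher and 1 and 1 lower than in dendritic cells, while 2 and 2 were higher and 7 and 9 lower than in macrophages. Ccl6 had 1155 and 1455 CPM in the members, 108 and 104 CPM in dendritic cells and 935 and 1105 CPM in macrophages. Ccl9 had 877 and 1068 CPM against 261 and 318 in dendritic cells and 629 and 693 in macrophages. Cxcl2, which draws neutrophils, had 1919 and 1591 CPM against 214 and 138 in dendritic cells and 2269 and 2028 in macrophages. Ccl8, a chemokine of skin macrophages, had 22.1 and 2.48 CPM against 4165 and 2542 in macrophages, and Ccl2, which draws monocytes, 289 and 375 CPM against 905 and 869. Of the receptors, Cx3cr1 had 26.7 and 16.5 CPM against 123 and 155 in macrophages.

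Interleukin-1 genes showed a high level of the receptor antagonist beside an intermediate level of Il1b. Il1rn, the antagonist that blocks the interleukin-1 receptor, had 319.7 and 263 CPM in the members, 99.6 and 85.7 in dendritic cells, 109 and 76.1 in macrophages and 326 in monocytes. Il1b, the cytokine itself, had 1737 and 1286 CPM against 3514 and 3178 in dendritic cells, 629 and 278 in macrophages and 2951 in monocytes. Il1r2, the decoy receptor, had 18.5 and 10.6 CPM against 100.1 and 75.9 in dendritic cells. Of 15 and 14 genes of this pathway tested against dendritic cells, 3 and 3 were higher and 2 and 2 lower.

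Receptors for antibody and complement were nearer to macrophages than to dendritic cells for some genes. Of 19 such genes, 13 and 9 were higher than in dendritic cells and 1 and 2 lower, while 1 and 1 were higher and 12 and 11 lower than in macrophages. C1q genes, which the rule limits, are in this list. Cfp, properdin, had 387 and 457 CPM in the members, 415 and 403 in macrophages and 114 and 129 in dendritic cells, and Fcrls, a secreted Fc receptor-like protein, 387 and 465 CPM against 353 and 423 in macrophages, 175 and 172 in dendritic cells and 4.44 in monocytes. Fcgr3, an activating Fc receptor, had 282 and 301 CPM against 569.9 and 579.6 in macrophages and 113 and 121 in dendritic cells. Of the lectins, Clec4a2 had 424 and 416 CPM against 222 and 236 in dendritic cells and 351 and 357 in macrophages. In the list of small cavity macrophages, 4 of the 5 genes that set no limit were higher than in macrophages in both libraries and 3 of the 5 higher than in dendritic cells (Cd226, Clec4b1 and Fcrls). Il1b was 2-fold lower than in dendritic cells.

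Transcription factors differed in both directions from each gate. Of 29 and 27 factors, 6 and 6 were higher and 3 and 3 lower than in dendritic cells, and of 29 and 28 factors 5 and 8 were higher and 6 and 6 lower than in macrophages. Maf, a factor of mature macrophages, had 72.2 and 35.7 CPM against 1503 and 1712 in macrophages. Cebpb, a factor of monocyte-derived cells, had 643 and 557 CPM against 174 and 179.7 in dendritic cells and 689 and 539 in macrophages, and Id2 367 and 361 CPM against 130.4 and 104 in dendritic cells. Tcf4, a factor of the dendritic lineage, had 81.3 and 40.7 CPM against 553 and 448, and Nr4a3, an immediate early factor, 172 and 101 CPM against 814 and 701. Spi1, which encodes PU.1, was close in the 3 kinds of cell, at 316 and 307 CPM against 352 and 359.9 in dendritic cells and 293 and 285 in macrophages.

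Over whole profiles the members were most like type 2 dendritic cells. Pearson's r of log levels across 5275 and 5127 genes was 0.908 and 0.893 with the dendritic gate, 0.821 and 0.746 with macrophages, 0.839 with the isotype control monocytes and 0.635 and 0.533 with T cells. These correlations run across genes of summed profiles from the same library, which share depth and free RNA, and genes are not independent replicates. The members summed include those, described below, that also met the limits of the dendritic gate. Among the 15 nearest neighbours of each thinned member, found without the 5 genes of the rule, 65.3% and 73.8% were other members, where members made up 31.4% and 29.2% of the phagocytes searched. Type 2 dendritic cells made up 26.2% and 24.3%, macrophages 3.54% and 1.47% and monocytes 4.88% and 0.386% of these neighbours. Neighbours of the macrophage gate were macrophages in 85.3% and 90.7% and members in 10.1% and 7.69%. C1q and the genes of the gates were not left out of this search, so the choice of the groups sets part of these shares.

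**Figure D3:**
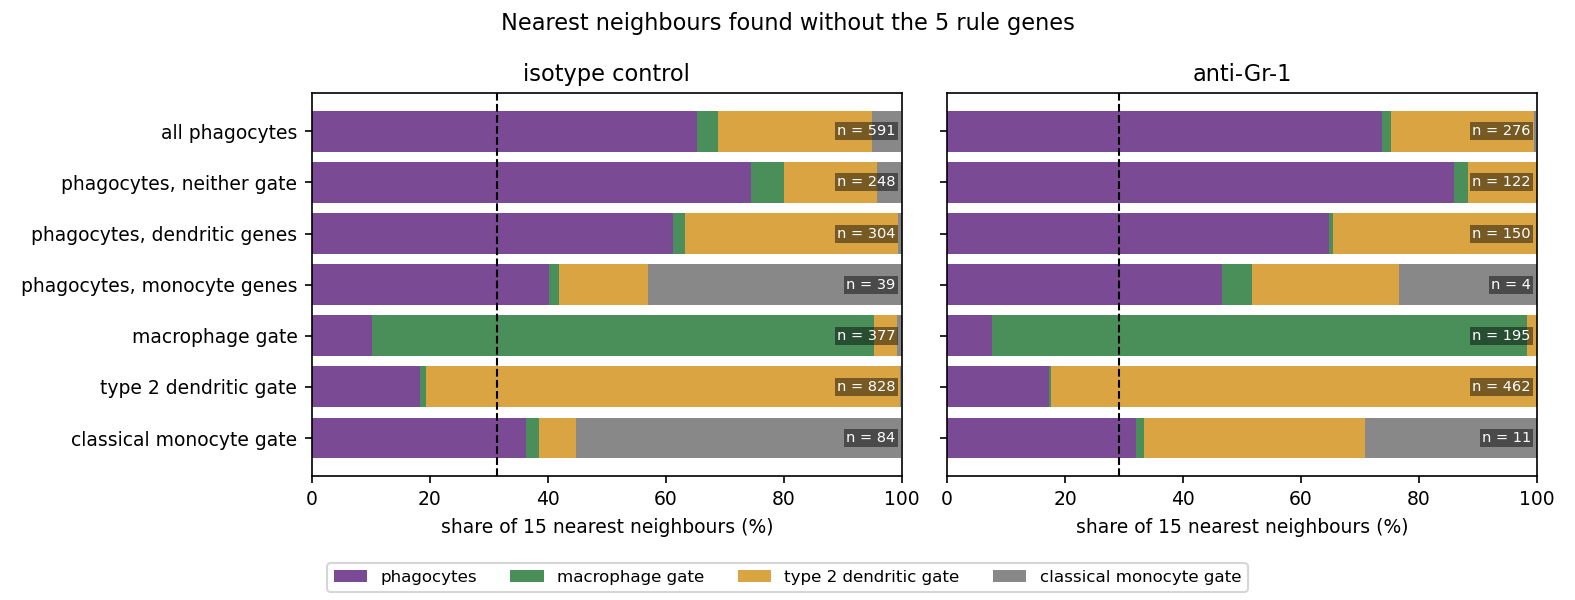
Shares of the 15 nearest neighbours that were members, type 2 dendritic cells, macrophages or monocytes, as stacked bars for each kind of cell and library, after thinning to 2000 UMIs and without the 5 genes of the rule; the dashed line is the members' share of the phagocytes searched. Members' neighbours are members in 65.3% and 73.8%, against 31.4% and 29.2% of the cells searched.

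The members could be divided by whether they also met the limits of another gate, and whether the parts are separate kinds was not tested. The limits of the type 2 dendritic gate were also met by 321 members (49.5%, 45.5 to 53.4) in the isotype control library and 152 (54.7%, 48.6 to 60.6) in the anti-Gr-1 library. The limits of the monocyte gate were met by 39 (6.01%) and 4 (1.44%), of which 14 and 2 met both and are set with the monocyte gate below. Neither gate was met by 303 (46.7%) and 124 (44.6%). Median depth differed between these parts, at 7779 and 14978 UMIs for members of neither gate and 11514 and 15814 for the 307 and 150 that met the dendritic gate alone. What depth contributed to the division was not tested.

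Retnla, Lpl, Fn1 and Lyz1 were higher in members of neither gate, and Ear2 was not. Retnla had 3761 CPM in members of neither gate and 1629 CPM in those that met the dendritic gate of the isotype control library, and 4819 and 1028 CPM in the anti-Gr-1 library. Fn1 had 2861 and 1538 CPM, and 3362 and 1470 CPM, in the same order. Lpl had 2716 and 1032 CPM, and 2746 and 1181 CPM. Lyz1 had 1098 and 575 CPM, and 2160 and 783 CPM. Ear2 ran the other way in both libraries, at 1371 and 1455 CPM, and 1198 and 1560 CPM.

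Over single thinned cells Retnla, Fn1 and Lpl varied together, and Ear2 and Lyz1 less so. Spearman's rho between Fn1 and Lpl was 0.44 among isotype control and 0.48 among anti-Gr-1 members, between Retnla and Fn1 0.42 and 0.52, and between Lpl and Ccl6 0.45 and 0.48. Fn1 ran against Mgl2 (-0.35 and -0.49) and Cd209a (-0.40 and -0.52). Ear2 ran with Mgl2 (0.34 and 0.19) and not with Lpl (-0.02 and -0.16), and Lyz1 was only weakly related to Retnla (0.14 and 0.22). These are descriptions over 591 and 276 cells that share a library, a depth and the choice by these genes, whose part in the relations was not tested.

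Other genes that differed between the parts of the members were chosen, after their values were seen, for differing the same way in both libraries. Cd36 had 376 CPM in members of neither gate and 89.9 CPM in those of the dendritic gate of the isotype control library, a ratio of 4.18 (3.68 to 4.76), and a ratio of 1.93 (1.67 to 2.23) in the anti-Gr-1 library. Ctsd, a lysosomal protease, had ratios of 2.58 and 2.24, Rgs1 2.48 and 2.59, Mmp19 2.21 and 2.89, Plin2 2.03 and 1.75, the matrix protein gene Ecm1 1.74 and 2.02, and Ccl6 1.82 and 1.71. C1qb, limited by the rule, had 2.13 and 2.50. On the other side Cd209d had 316 against 1149 CPM, a ratio of 0.275, and 265 against 1219 CPM, a ratio of 0.217. The related Cd209e had ratios of 0.321 and 0.279, Mt2, a metallothionein, 0.356 and 0.367, Cd163, the haemoglobin receptor, 0.471 and 0.470, and Il1b 0.529 and 0.524. H2-Ab1, which the dendritic gate requires, had 6037 against 8039 and 5822 against 7942 CPM.

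**Figure D4:**
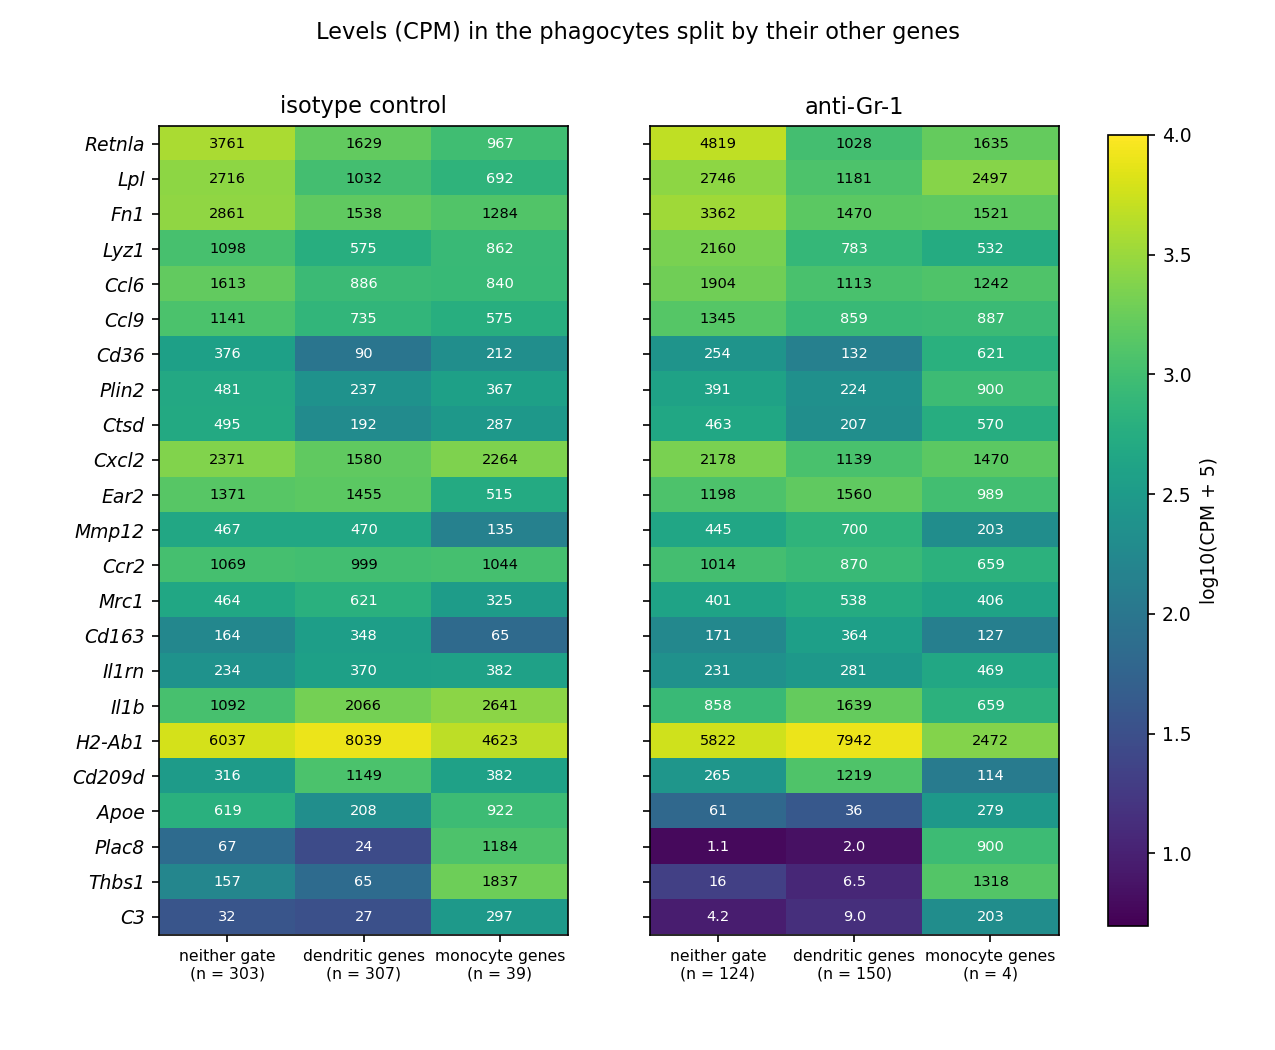
Levels of genes of several groups, in CPM with colour on a log10(CPM + 5) scale, in members that met neither gate (303 and 124 cells), the limits of the type 2 dendritic gate (307 and 150) or those of the monocyte gate (39 and 4) in each library. Retnla, Lpl, Fn1 and Cd36 are higher in members of neither gate than in those that met the dendritic gate, and Cd209d and Il1b are lower.

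With the 5 genes left out, members of neither gate had more members and more macrophages among their neighbours than members that met the dendritic gate had, and fewer dendritic cells. Of the neighbours of these members, 74.4% and 86.0% were members, and of those that met the dendritic gate 61.2% and 64.7%, with 36.2% and 34.6% type 2 dendritic cells. Macrophages were 5.65% and 2.35% of the neighbours of the former and 2.06% and 0.667% of those of the latter. The parts were mixed: of the neighbours of members of neither gate, 39.3% and 53.1% were members of neither gate. Members that met the dendritic gate were 32.5% and 32.9% of these neighbours. For members that met the dendritic gate, the same shares were 19.7% and 21.9%, and 40.7% and 42.8%. Members that met the monocyte gate of the isotype control library had members as 40.2% and monocytes as 43.1% of their neighbours. The genes of the gates, which made this division of the members, could enter the search. Part of these differences was therefore set in advance by the division, and they are a description only. The whole profile of members of neither gate had r of 0.865 and 0.845 with type 2 dendritic cells. With macrophages r was 0.822 and 0.741, and with the isotype control monocytes 0.829, so the lead of dendritic cells was small in that library.

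Between the treatments most genes of the members lay within 2-fold. Of 10339 genes tested, 3 (0.0290%) were at least 2-fold higher in the anti-Gr-1 members and 79 (0.764%) at least 2-fold lower, with a median log2 ratio of -0.07. With 1 CPM added in place of 5 CPM these counts were 25 and 267, and with 20 CPM added 0 and 16. The ratio of anti-Gr-1 to isotype control was 0.922 (0.888 to 0.958) for Mgl2, 0.980 (0.966 to 0.994) for H2-Ab1 and 0.992 for Cd74. Of the genes of the rule, Ear2 had a ratio of 1.02, Retnla 1.12, Fn1 1.13 and Lpl 1.14, and Lyz1 was 1.74-fold higher (1.67 to 1.80). These genes chose the members in both libraries, so their ratios are a description only. After thinning, Mgl2 was detected in 67.5% and 68.1% of members (12.7% and 3.38% of the T cell gate) and Cd209a in 42.1% and 41.7%.

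Monocyte and macrophage genes made up much of what was lower. Plac8, a gene of classical monocytes, had 112 CPM in the isotype control and 17.6 CPM in the anti-Gr-1 members, a ratio of 0.158, and 94.9% of its anti-Gr-1 UMIs came from 5 cells. Thbs1 had 209 and 34.1 CPM, a ratio of 0.163, and 5 cells held 81.5% of its anti-Gr-1 UMIs. Both were also lower in the T cell gate, at 18.4 and 2.97 CPM for Plac8 and 15.7 and 1.69 CPM for Thbs1. Apoe had 406 and 51.0 CPM, a ratio of 0.126 (0.109 to 0.144). In the same libraries Apoe had 183 and 93.8 CPM in the T cell gate, 429.9 and 231 CPM in dendritic cells and 9532 and 10316 CPM in macrophages. Igf1, insulin-like growth factor, had 75.4 and 19.4 CPM, a ratio of 0.258, with 5.27 and 0.750 CPM in the T cell gate. Of its anti-Gr-1 UMIs in the members, 76.7% came from 5 cells.

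Other lower genes by the naming rule were Apod, a lipid-binding apolipoprotein (59.2 and 6.55 CPM, ratio 0.111), Mucl1 (0.231), the chemokine genes Ccl24 (0.283) and Pf4 (0.318), Ly6e, a Ly6 family gene (197 and 69.6 CPM, 0.353), Fabp4, a fatty acid carrier (0.421), and Hpgd, which degrades prostaglandins (0.428). Apod was also lower in the T cell gate, at 78.0 and 16.9 CPM, and 5 cells held 42.6% and 51.7% of its UMIs in the members. The log2 ratio of Apod was -2.47 in all members and -0.79 in members of neither gate. It was -0.50 in members without UMIs of other lineages or of both sexes. Mucl1 was detected in 7.24% and 7.55% of members, and 5 cells held 52.1% and 89.6% of its UMIs. In the anti-Gr-1 members, 5 cells held 72.0% of the UMIs of Ccl24 and 75.8% of those of Fabp4. Of the 79 lower genes, 33 (41.8%) were at least 2-fold higher in the isotype control monocyte gate than in the members and 17 (21.5%) in the macrophage gate, 41 (51.9%) in at least 1 of them, against 4.25%, 5.70% and 9.15% of all genes tested. The T cell gate also had 12 (15.2%) of the 79 at least 2-fold lower, against 0.890% of all genes.

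The genes that were higher in the anti-Gr-1 members by the naming rule were Il6, Ccl7, Serpinb6a, Gbp3, Ecm1, Cavin1, Lars2, Dapk1, Bcl2a1a, Cd24a, Gbp2 and Cd81, all under 2-fold. Il6, an inflammatory cytokine, had 49.1 and 90.6 CPM, a ratio of 1.84 (1.59 to 2.14), in 11.7% and 23.4% of cells, with 37.1% and 40.4% of UMIs in 5 cells. Ccl7, a chemokine for monocytes, had 34.1 and 60.5 CPM, a ratio of 1.77 (1.48 to 2.13), but 1 cell held 41.0% and 5 cells 82.1% of its anti-Gr-1 UMIs. Ecm1 had 103 and 158 CPM, a ratio of 1.54 (1.38 to 1.71), and Cd81, a tetraspanin, 122 and 172 CPM, a ratio of 1.41. Lars2, a mitochondrial tRNA ligase, had 1053 and 1577 CPM, and the T cell gate moved with it from 1385 to 1675 CPM. The 3 genes past 2-fold, named after their values were seen, were AA467197 (5.87 and 20.3 CPM), Plet1 (11.9 and 29.4 CPM) and AY036118 (383 and 772 CPM).

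By list, MHC class II and costimulation genes had 0 of 18 past 2-fold between treatments (median -0.04), type 2 dendritic genes 0 of 12 (-0.16), interleukin-1 genes 0 of 15 (-0.17), brakes of NF-kappaB 0 of 12 (-0.11) and immediate early genes 0 of 17 (-0.09). Over all 10339 genes tested, 0.0290% were higher and 0.764% lower, at a median of -0.07. A count of 0 in lists of this size is near that share and does not set them apart. Il1b had a ratio of 0.740 (0.717 to 0.765) and Il1rn of 0.822 (0.764 to 0.883). Lists with lower genes were classical monocytes with 5 of 13 (median -0.73), non-classical monocytes 5 of 11 (-0.70), settled macrophages 4 of 19 (-0.62), chemokines 5 of 17 (-0.27), lipid genes 4 of 22 (-0.23), matrix and adhesion 4 of 40 (-0.11) and Fc and complement genes 2 of 19 (-0.49). None of these 7 lists had a gene at least 2-fold higher. The lists of T cells (4 of 7, -1.02) and neutrophils (3 of 6, -1.33), whose genes these cells should lack, were lower as well, at the summed levels given above. The part of RNA from other cells in the lower genes was not tested.

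Under anti-Gr-1 a smaller share of members had UMIs of monocyte genes, and so did a smaller share of T cells. Members with at least 3 UMIs of Ly6c2, Plac8, Thbs1 and Vcan in sum numbered 103 (15.9%) under isotype antibody and 12 (4.32%) under anti-Gr-1, a ratio of 0.272 (0.136 to 0.496). At 2000 UMIs per cell, 18.1% (15.1 to 21.5) and 2.90% (1.26 to 5.63) had any UMI of these genes, a ratio of 0.160 (0.0674 to 0.327). All of these genes were themselves at least 2-fold lower in the summed anti-Gr-1 members. The smaller shares restate that difference in part and are a description only. By single gene, the thinned shares were 8.29% and 1.09% of members and 2.01% and 0.509% of the T cell gate for Plac8, and 11.8% and 2.17% of members and 1.55% and 0.254% of the T cell gate for Thbs1. For Plac8 and Thbs1 the share of members lay above that of T cells in each library. The anti-Gr-1 intervals of Plac8 overlapped, at 0.225 to 3.14 in members and 0.311 to 0.785 in T cells. Ly6c2 was found in 3.21% and 0.362% of members and 1.56% and 0.509% of the T cell gate, so not above T cells under anti-Gr-1. The part of free RNA in the difference between libraries was not tested. Members that met the monocyte gate were fewer by a ratio of 0.239 (0.0621 to 0.664). In a bulk sum fewer such cells and less RNA per cell cannot be told apart.

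Without the members with at least 3 of these UMIs, 546 and 266 members were left and 43 genes (0.427%) were at least 2-fold lower, 38 of them among the 79. Of the 79 genes, 64 had enough UMIs to be tested there. The genes that chose the cells left out are among the 79, so part of the fall in the count was set in advance. Apoe had 242 and 48.3 CPM, with a ratio between 0.172 and 0.232. Igf1 had a ratio of 0.295 and Pf4 of 0.307, while Ly6e (0.514) and Hpgd (0.634) came within 2-fold. Among all members thinned to 2000 UMIs, Apoe was detected in 23.2% and 7.25% (12.6% and 4.88% of the T cell gate).

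**Figure D5:**
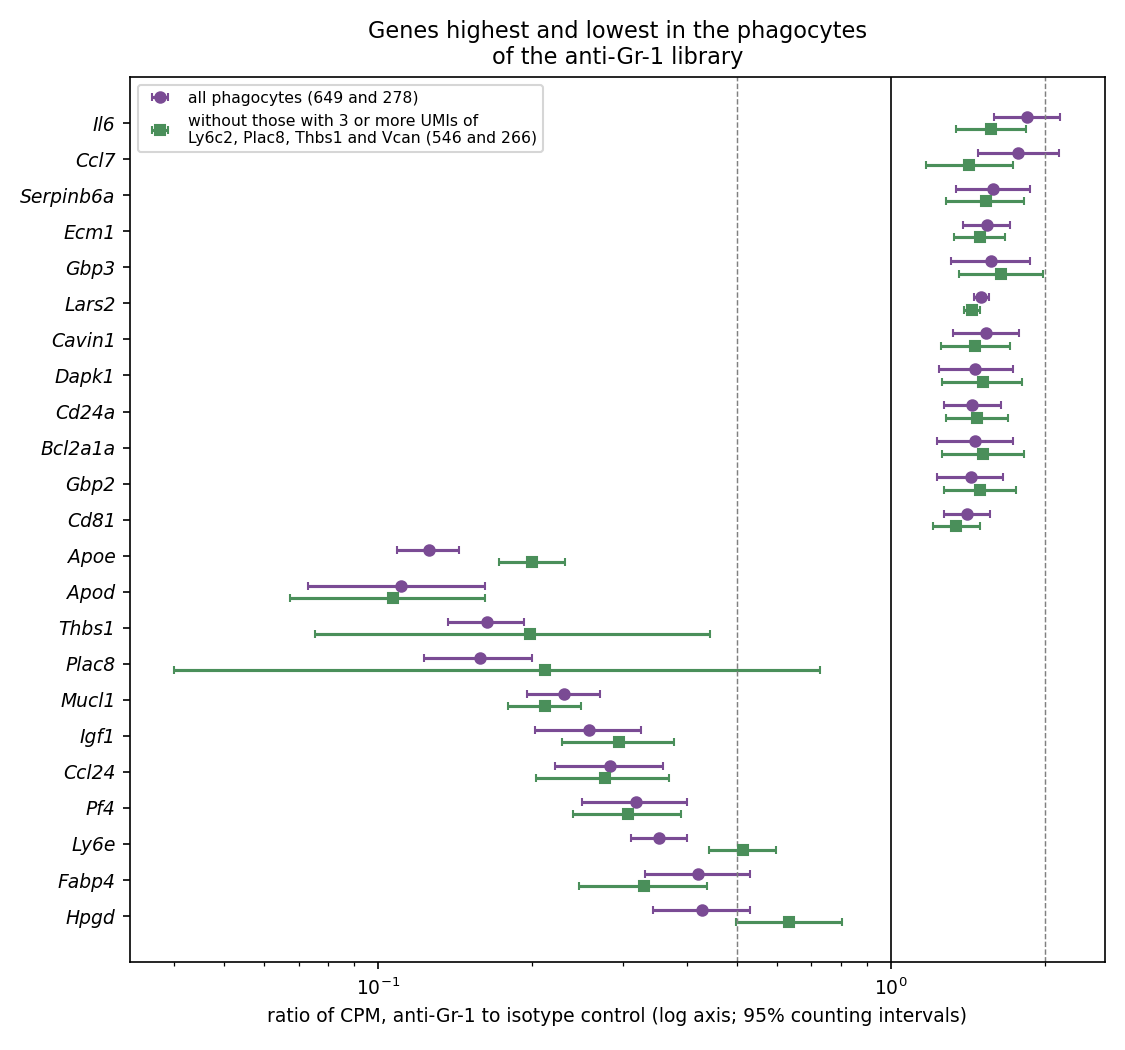
Ratio of the anti-Gr-1 to the isotype control members, with 95% intervals for counting error on a log axis, of the genes named by size, for all members (649 and 278) and for those with under 3 UMIs of Ly6c2, Plac8, Thbs1 and Vcan (546 and 266); dashed lines mark 0.5 and 2. The higher genes stay under 2-fold, and Apoe has a ratio of 0.126 in all members. Ly6c2, Plac8, Thbs1 and Vcan are themselves lower in the anti-Gr-1 members, which sets part of the second set of ratios in advance.

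The pools differed in the sex of their cells. Cells with Xist and no Y-linked UMI made up 211 (32.5%) isotype control and 50 (18.0%) anti-Gr-1 members, and cells with Y-linked and no Xist UMI 247 (38.1%) and 179 (64.4%). Members were 3.18% and 3.31% of the female and 4.17% and 3.89% of the male cells. Apoe was lower in both sexes, with ratios of 0.115 in female and 0.179 in male members. Fabp4 had ratios of 0.0147 in female members, with 1 anti-Gr-1 UMI, and 0.518 in male members. Il6 was higher in both, at 3.37 and 1.46, while Serpinb6a had 0.823 in female and 1.81 in male members.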

How the data were processed

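Cell Ranger 4.0.0, named in the file headers, produced the deposited raw counts of UMIs for each gene in each barcode. The submitters' processing notes give mouse build mm10, which the labels spell mms10. The labels' protocols name 10x 3′ v2 chemistry with antibody-derived tags, which were not used here. How reads shared by near-identical genes were counted is not given in the sources used here. Both files list 32285 genes, and 19542 of 21311 and 8047 of 9110 barcodes had at least 200 genes and under 10% mitochondrial UMIs. The 2 libraries held 122794488 and 83305329 UMIs in kept cells, so depth differed per cell, and shares of cells with a UMI were repeated at 2000 UMIs per cell.

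Counts were handled in Python 3.11.15 with numpy 2.4.6, scipy 1.17.1, pandas 2.3.3 and scanpy 1.11.5, and plots drawn with matplotlib 3.10.9. UMIs were summed over cells of a group and scaled to CPM. Intervals are exact Poisson for levels, exact binomial (Clopper-Pearson) for shares and exact conditional for ratios, at 95%. A list gene at 0 UMIs is given with the level that 3 counts would have. The calculations were tested on simulated data.

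The members, gates and all 38 gene lists were chosen with earlier results of these data known. Between libraries the 12 highest and 12 lowest ratios were named among genes with at least 50 CPM in either library and at least 50 UMIs. Against the gates, the 15 highest and 10 lowest genes were named by their least favourable ratio, each with at least 100 CPM. Rule genes, sex-linked, mitochondrial, ribosomal, haemoglobin and receptor genes and gene models without a gene name were not eligible. Some genes that these rules named are not reported here. Up to 6 genes of a list were named by level or ratio. Ctsd, Cd209e, Mt2, AA467197, Plet1, AY036118 and other genes outside this rule were chosen after their values were seen. Neighbours were found per library in 20 principal components of 1500 variable genes. Samples were grouped by the treatment label. Alternatives changed the limits of the rule, pseudocount, filter, depth, doublets, sex and the part of the members used.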

Additional observations from a re-analysis of the deposited data

Results flagged for a closer look

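For 3 genes the ratio of the anti-Gr-1 to the isotype control members lay on opposite sides of 1 in female and male cells, with intervals that did not hold 1. Retnla, the secreted resistin-like molecule, had a ratio of 0.725 (0.682 to 0.770) in female members, at 2382 and 1727 CPM, and of 1.33 (1.28 to 1.38) in male members, at 1979 and 2629 CPM. Lyz2, the myeloid lysozyme, had 0.926 (0.896 to 0.956) in female and 1.13 (1.11 to 1.15) in male members. H2-Ab1, of MHC class II, had 1.05 (1.02 to 1.08) in female and 0.951 (0.933 to 0.970) in male members. The difference between the sexes was not tested, since each sex of each pool is 1 sum of cells with 211 and 50 female and 247 and 179 male members, and the intervals cover counting error only. Retnla is also a gene of the rule that chose the members, and few cells held most of its UMIs.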

How the results depend on the processing

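No paired analysis was possible because each treatment had 1 library. Among the genes named by size, none past 2-fold changed direction. Of all 79 lower genes, 73 were still lower by any amount without the members with at least 3 monocyte UMIs. Others changed sign there, such as Dct (log2 ratio from -1.19 to 0.26) and Hp (-1.11 to 0.11). Of the summary values, 30 under the alternatives lay close to the reported ones and 26 moved, and for single genes 386 and 221. The share of members in the isotype control library was 2.89% with a sum of at least 10 UMIs, 1.89% with 4 of 5 genes, 3.00% and 3.73% with C1q limits of 0.1% and 1%, 3.90% after thinning, 3.77% without high doublet scores and 4.17% in male cells. In the anti-Gr-1 library it was 2.30% with 4 of 5 genes and 3.89% in male cells, and the ratio of shares was 1.21 with 4 of 5 genes.

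The counts of 3 higher and 79 lower genes moved with the pseudocount, the depth and the cells used, and the causes were not tested. Higher genes numbered 25 with 1 CPM and 0 with 20 CPM added, 5 by mean CPM per cell, 23 after thinning, 14 without members with UMIs of other lineages, 17 in members of neither gate, 43 in female and 9 in male members. Lower genes numbered 267, 16, 156, 196, 124 and 150 under the same settings up to members of neither gate, 156 in female members and 43 in members with under 3 monocyte UMIs. The signs of Serpinb6a, Ccr2, Mgl2, Cd209a, Lyz2, H2-Ab1, Retnla, Ear2, Lpl and Fn1, all within 2-fold between libraries, turned under at least 1 setting, and the cause was not tested. Several settings were added after seeing the data.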

Other observations

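Some genes of cells other than phagocytes were found in the members, and they are named here after their values were seen. Mcpt4, a mast cell protease, was 3.42-fold and 8.21-fold higher in members of neither gate than in those that met the dendritic gate. Mast cell and basophil genes summed to 181 and 218 CPM in the members, below the 715 and 626 CPM of the T cell gate. Mucl1, a secreted protein gene of skin glands, had 169.5 and 39.1 CPM in the members and 53.5 and 367 CPM in the macrophage gate, where it was detected in 3.23% and 2.50% of cells. The 21 cells of the isotype control library with 0.3% to 0.4% of UMIs from C1q, which the rule left out, had 7152 CPM of Retnla and 1171 CPM of Mrc1, both above the members.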
